A study of Mus musculus with 10 samples.

Results

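Tumour necrosis factor (TNF) signalling was followed at the level of mRNA through 10 of its own components: the ligand gene Tnf, the receptor genes Tnfrsf1a and Tnfrsf1b, the adaptor genes Traf1 and Traf2, the ubiquitin ligase genes Birc2 and Birc3, the kinase genes Ripk2 and Ikbke, and the scaffold gene Tank. The genes were taken by symbol, and a gene's value is the mean of the probes annotated to that symbol alone. Of the 10 genes, 9 were measured, by 16 of 38784 spots, among 14365 genes tested. Ripk2 was not analysed here. Tnf, Traf1, Traf2, Birc3 and Ikbke each had 1 probe, Tnfrsf1a had 2, and Tnfrsf1b, Birc2 and Tank had 3.

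TNF binds the receptor TNFR1 (Tnfrsf1a), which most cells carry, and TNFR2 (Tnfrsf1b), whose expression is more restricted. Bound TNFR1 gathers adaptors that bring in Traf2 and the ubiquitin ligases cIAP1 (Birc2) and cIAP2 (Birc3), and the ubiquitin chains they build recruit the IkB kinases, which free the transcription factor NF-kB from its inhibitors. Tank is a TRAF-binding scaffold that also binds the IKK-related kinases Tbk1 and IKK-epsilon (Ikbke), and Ripk2 is a kinase that carries signals from the NOD receptors to the same kinases. Tnf, Traf1 and Birc3 are themselves known NF-kB target genes. Sirt6 encodes a chromatin-bound deacetylase.

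Mouse samples of 2 genotypes, wild-type (WT) and Sirt6-/- (knockout, KO), were followed over a TNF-alpha time course, with untreated samples at 0 h and treated ones at 1.5, 6 and 24 h. TRIzol-extracted total RNA of each sample, in Cy5, was set against universal mouse reference RNA, in Cy3, on dual-colour arrays, 10 in all. At 0 h each genotype has arrays a and b, and each later time has a single array per genotype, so the 8 groups hold replicates at 0 h alone. Cell type, strain, age, TNF-alpha dose and whether a and b were separate cultures are not given in the sources used here. Each test below thus measures the spread of these arrays and nothing wider, which may be technical. Tests of genotype at 0 h, of responses within a single genotype and of unequal responses take that spread from the 0 h pairs. A treated array is there assumed to vary like these pairs. In averages over times or genotypes, the spread also holds how far WT and KO responded unequally. The standard errors and p-values of these averages therefore include such unequal responses. The number of arrays limits the precision.

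Every value below is the log2 ratio of the sample to the reference after each array's median over genes was set to 0. The labels state neither the log base nor the direction of the deposited ratio. Base 2 was read from the range of the values, and sample over reference from higher ratios of the known TNF-alpha targets Ccl2 and Nfkbia on the treated arrays, so the direction of these 2 genes is not an independent result and their values serve for scale. Folds hold only for base 2. A ratio ranks the samples for 1 gene and cannot be used to rank genes against each other. Differences are log2 differences from limma with their standard error (SE), and intervals are 95% intervals that are not adjusted for the number of genes. A difference "passed" where its Benjamini-Hochberg adjusted p over the 14365 genes was under 0.05.

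Over genes, the 0 h pair correlated at 0.857 in WT and at 0.69 in KO, and the SD over spots ranged from 0.551 to 0.983 across arrays, widest on the KO 0 h array b. Sirt6 read between -0.16 and 0.07 on the 5 WT arrays and between -1.16 and -0.76 on the KO arrays at 0, 1.5 and 6 h. It read -0.05 on the array labelled KO at 24 h, within the WT range, so that array goes against its label for this gene, and values from it are given under that name. The labels do not say whether the Sirt6 probes lie in the deleted part. Muscle genes differed by genotype on all arrays: the mean over the 5 listed lay between -0.13 and -0.02 in WT and between 0.23 and 0.89 in KO. The labels number the array images through the WT arrays first and then the KO arrays, so the order of the arrays and the genotype cannot be told apart.

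Promoters of Ikbke, Birc3, Tnf and Tank are shown because these genes gave the lowest p-values in the TNF responses or the genotype comparisons. Each window is the RefSeq sequence of 300 bases (250 before and 50 after the start) in mouse build GRCm38.p6, read along the gene's strand from 5′ to 3′. Capitals mark matches to GGGNNNNNCC, a loose form of the NF-kB binding motif, searched on both strands, and overlapping matches run together. The windows lie at chr1:131279514-131279813 (minus strand) for Ikbke, chr9:7873121-7873420 (minus) for Birc3, chr17:35201958-35202257 (minus) for Tnf and chr2:61592847-61593146 (plus) for the third of 4 annotated Tank windows.
Ikbke: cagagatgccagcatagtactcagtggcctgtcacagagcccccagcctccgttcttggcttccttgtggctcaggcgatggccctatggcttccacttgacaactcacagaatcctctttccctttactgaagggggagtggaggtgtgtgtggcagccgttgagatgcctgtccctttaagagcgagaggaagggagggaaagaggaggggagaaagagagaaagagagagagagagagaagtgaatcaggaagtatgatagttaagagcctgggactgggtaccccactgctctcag
Birc3: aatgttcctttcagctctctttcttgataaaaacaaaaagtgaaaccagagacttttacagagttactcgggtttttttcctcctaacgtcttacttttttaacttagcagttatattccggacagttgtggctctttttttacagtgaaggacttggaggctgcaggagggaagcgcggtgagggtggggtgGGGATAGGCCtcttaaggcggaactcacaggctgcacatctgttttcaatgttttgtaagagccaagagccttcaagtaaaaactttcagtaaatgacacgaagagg
Tnf: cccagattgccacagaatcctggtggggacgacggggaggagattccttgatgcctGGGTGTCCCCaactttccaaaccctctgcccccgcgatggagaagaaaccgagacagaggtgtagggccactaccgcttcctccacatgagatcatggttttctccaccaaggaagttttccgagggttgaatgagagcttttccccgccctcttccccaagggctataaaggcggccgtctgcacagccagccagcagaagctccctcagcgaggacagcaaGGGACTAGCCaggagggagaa
Tank: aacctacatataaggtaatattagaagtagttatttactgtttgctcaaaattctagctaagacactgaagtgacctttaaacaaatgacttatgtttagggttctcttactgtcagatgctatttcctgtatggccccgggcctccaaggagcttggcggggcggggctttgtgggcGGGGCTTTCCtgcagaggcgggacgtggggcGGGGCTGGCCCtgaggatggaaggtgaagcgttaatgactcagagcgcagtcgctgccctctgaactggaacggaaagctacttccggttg

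The Ikbke window held no match. The Birc3 window held 1, starting 57 bases before the start (position -57), and the Tnf window held matches at -194, where both strands match, and at 29 bases after the start. Of the 13 windows of the 9 genes, 9 held the motif, beside 50.8% of the 32851 promoter windows in the table. They belong to 6 genes, and no window of Ikbke, Traf1 or Birc2 held it. All Tank windows held it, but they overlap in pairs that carry the same sites, so these sites are counted more than once. A stricter NF-kB consensus was found in 2 overlapping Tank windows, in the one shown at -72, beside 4.51% of all windows. The first and second Tank windows, not shown, held 1 loose match each and no stricter one. A match describes these letters alone.

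None of the 9 genes passed in any of the 14 comparisons made, and 25 of their 126 differences had an unadjusted limma p under 0.05, beside shares of all genes that ran from 2.36% to 17.2% over the 14 comparisons, which share arrays. Of these 25, 19 lost that threshold under at least 1 other setting or with an array left out. The clearest pattern belonged to Ikbke, which was higher on all 6 treated arrays than on all 4 untreated ones, and higher in KO than in WT at every time, the array labelled KO at 24 h included. Birc3 was higher on treated than on untreated arrays within each genotype, and lower in KO at 0 h. Tnf was higher in KO at 0 h. No member had all KO arrays above, or all below, all WT arrays, as 0.961% and 1.28% of all genes did. Few of the 14365 genes passed at all: 0.00696%, 0.0139% and 0.0139% in the mean TNF responses at 1.5, 6 and 24 h, 0% between the genotypes in the mean and at 0 h, and 0%, 0.00696% and 0.0278% in the interactions at the 3 times. In the responses within WT the shares were 0%, 0.00696% and 0.244%, and within KO they were 0% at each time. Members at an unadjusted limma p under 0.05 are therefore counted beside the share of all genes at that threshold. In bulk samples, fewer cells of a type and less RNA per cell cannot be told apart.

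**Figure D1:**
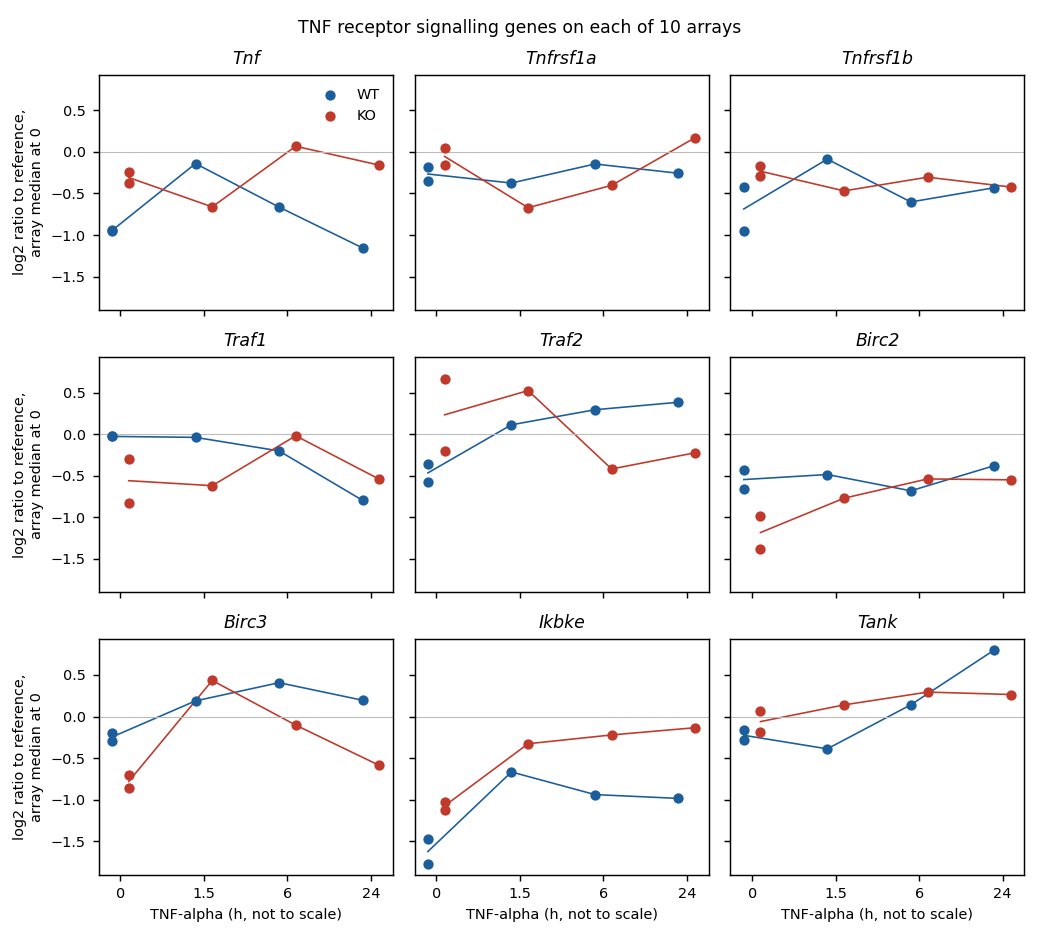
Log2 ratio to the reference (vertical axis, array median at 0) of the 9 measured genes at each time of TNF-alpha (horizontal axis, hours, not to scale) on the WT arrays (blue) and the arrays labelled KO (red). Each point is 1 array and lines join group means. Ikbke runs from -1.77 to -0.13, with the 4 untreated points lowest and KO above WT at each time.

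Tnf, the ligand, read -0.95 and -0.94 on the WT arrays at 0 h, then -0.14, -0.66 and -1.16 at 1.5, 6 and 24 h. In KO it read -0.24 and -0.38 at 0 h, -0.66 at 1.5 h and 0.07 at 6 h, with -0.16 on the array labelled KO at 24 h. The WT pair at 0 h lay below the KO pair, as for 24% of all genes. The WT array at 1.5 h was the highest of WT, and the KO array at 1.5 h was the lowest of KO. Its highest group was KO at 6 h and its lowest WT at 24 h, and no neighbouring groups in this order differed beyond the 95% interval of their gap.

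Tnfrsf1a, the receptor TNFR1, stayed within a range of -0.67 to 0.17. It read -0.18 and -0.36 at 0 h in WT, then -0.38, -0.15 and -0.26 at 1.5, 6 and 24 h. The KO arrays read 0.05 and -0.16 at 0 h, -0.67 at 1.5 h and -0.40 at 6 h, with 0.17 on the array labelled KO at 24 h. The KO array at 1.5 h was the lowest of all 10.

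Tnfrsf1b, the receptor TNFR2, read -0.42 and -0.95 at 0 h in WT, then -0.09, -0.60 and -0.43 at 1.5, 6 and 24 h. In KO it read -0.29 and -0.18 at 0 h, -0.47 at 1.5 h and -0.30 at 6 h, with -0.42 on the array labelled KO at 24 h. The WT pair alone spanned most of the range of the gene, and its 3 treated KO arrays all lay below the KO pair, as for 10.7% of all genes.

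Traf1, an adaptor that pairs with Traf2 on TNFR2 and is induced by NF-kB in many cells, read -0.03 on both WT arrays at 0 h, then -0.04, -0.20 and -0.80 at 1.5, 6 and 24 h. The KO arrays read -0.30 and -0.82 at 0 h, -0.62 at 1.5 h and -0.02 at 6 h, with -0.54 on the array labelled KO at 24 h. All treated WT arrays lay below the WT pair, as for 16.4% of all genes, and both KO arrays at 0 h lay below both WT arrays, as for 28.8%.

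Traf2, the adaptor that brings the cIAPs to both receptors, read -0.57 and -0.36 at 0 h in WT, then 0.11, 0.29 and 0.38. In KO its 0 h arrays read -0.20 and 0.67, the widest pair of any member, followed by 0.52 and -0.42 at 1.5 and 6 h, with -0.22 on the array labelled KO at 24 h. The treated WT arrays all lay above the WT pair, as for 15.3% of all genes, while the KO arrays at 6 h and labelled KO at 24 h lay below both KO 0 h arrays.

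Birc2, which encodes cIAP1, read -0.66 and -0.43 at 0 h in WT, then -0.48, -0.68 and -0.38. In KO it read -0.98 and -1.39 at 0 h, then -0.77 and -0.54 at the next times, with -0.55 on the array labelled KO at 24 h. The KO 0 h arrays were the lowest of the 10, and the treated KO arrays all lay above them, as for 12.9% of all genes.

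Birc3, which encodes cIAP2, read -0.29 and -0.20 at 0 h in WT, then 0.19, 0.41 and 0.20 at 1.5, 6 and 24 h. In KO it read -0.86 and -0.70 at 0 h, 0.43 at 1.5 h and -0.10 at 6 h, with -0.59 on the array labelled KO at 24 h. Each treated array lay above the 0 h pair of its genotype, as for 1.14% of all genes, or 164, among which Ikbke was the other member. The untreated KO pair lay below the untreated WT pair, as for 28.8% of all genes.

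Ikbke, which encodes IKK-epsilon, read -1.48 and -1.77 at 0 h in WT, then -0.67, -0.94 and -0.98 at 1.5, 6 and 24 h. The KO arrays read -1.03 and -1.12 at 0 h, -0.33 at 1.5 h and -0.22 at 6 h, with -0.13 on the array labelled KO at 24 h. All treated arrays lay above all untreated ones, as for 74 genes or 0.515% of those tested, and KO lay above WT at every time, as for 481 genes or 3.35%. In the order of its groups, from the array labelled KO at 24 h down to WT at 0 h, the last step, from KO at 0 h to WT at 0 h, was the only gap between neighbours of any member to exceed its 95% interval (0.55, SE 0.21), an interval not adjusted for the number of gaps.

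Tank read -0.17 and -0.29 at 0 h in WT, then -0.39, 0.14 and 0.80 at 1.5, 6 and 24 h. The KO arrays read 0.07 and -0.19 at 0 h, 0.14 at 1.5 h and 0.29 at 6 h, with 0.27 on the array labelled KO at 24 h. The WT array at 24 h was the highest of the 10, and the treated KO arrays all lay above the KO pair, as for 12.9% of all genes.

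In the TNF-alpha response averaged over the genotypes, the ubiquitin ligase gene Birc3 and the kinase gene Ikbke were the members with the largest differences at 1.5 h. Ikbke was higher by 0.85 (SE 0.19, 1.80-fold if the log base is 2, limma adjusted p = 0.997). Birc3 was higher by 0.82 (SE 0.23, 1.77-fold, limma adjusted p = 0.997). These 2 members were the only ones of 9 at an unadjusted p under 0.05, beside 3.73% of all genes (1.22% higher and 2.51% lower). By p, Ikbke stood at rank 15 and Birc3 at rank 48 of all genes. Without the KO array at 1.5 h, the Birc3 difference was 0.41 and no longer at that threshold, and without the WT array it was 1.24. Ikbke ranged from 0.69 to 1.02 with each array left out.

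At 6 h the same 2 members were higher at an unadjusted p under 0.05, beside 2.88% of all genes (1.22% higher and 1.66% lower). Ikbke was higher by 0.77 (SE 0.19, interval from 0.35 to 1.19, limma adjusted p = 0.999). Birc3 was higher by 0.67 (SE 0.23, interval from 0.15 to 1.18, limma adjusted p = 0.999). Both differences kept their sign in each alternative and with each array left out, but Birc3 was no longer at an unadjusted p under 0.05 without either array of 6 h (0.61 and 0.72).

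At 24 h Ikbke and Tank were higher at an unadjusted p under 0.05, beside 7.08% of all genes (3.88% higher and 3.2% lower). Ikbke was higher by 0.79 (SE 0.19, limma adjusted p = 0.621), and by 0.63 without the array labelled KO at 24 h. Tank was higher by 0.68 (SE 0.23, limma adjusted p = 0.644). The Tank value rested on 1 array: it was 0.28, and no longer at that threshold, without the WT array at 24 h and 1.07 without the array labelled KO at 24 h. Birc3 was at 0.32 (SE 0.23, interval from -0.20 to 0.83).

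No other member was at an unadjusted p under 0.05 in these averages. The ligand gene Tnf gave 0.23, 0.33 and -0.03 at 1.5, 6 and 24 h, each with an SE of 0.29. TNFR1 gave -0.36, -0.11 and 0.12 (SE 0.21) and TNFR2 gave 0.18, 0.01 and 0.03 (SE 0.24). Traf1 gave -0.04, 0.18 and -0.38 (SE 0.26) and Traf2 gave 0.43, 0.05 and 0.20 (SE 0.38). Birc2 gave 0.24, 0.25 and 0.40 (SE 0.23). Over the 9 genes the median difference was 0.23, 0.25 and 0.20 at the successive times, beside 0.01, 0.02 and 0.04 over all genes, and 7, 8 and 7 of the 9 were above 0, beside 51.6%, 53.7% and 55.6% of all genes.

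**Figure D2:**
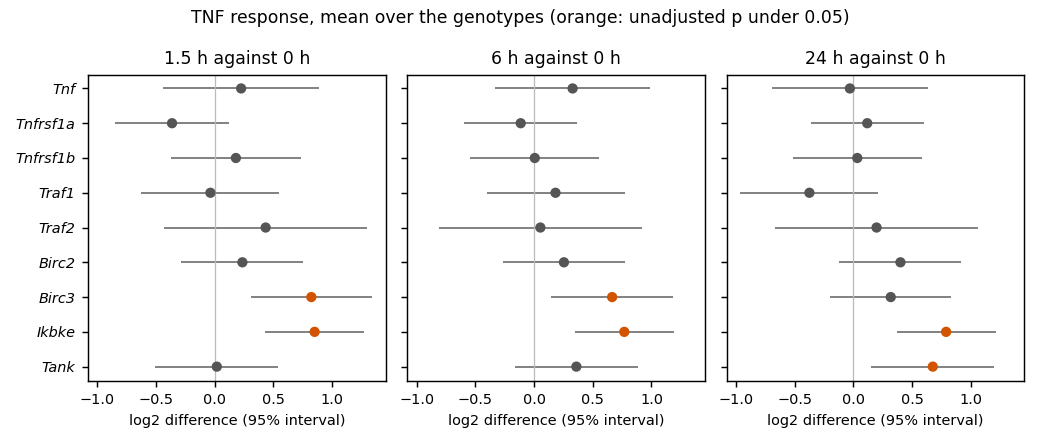
TNF-alpha response of each member as the log2 difference from 0 h (horizontal axis) averaged over both genotypes, with 95% intervals as bars, at 1.5, 6 and 24 h. Orange points have an unadjusted limma p under 0.05, and they are Ikbke at each time (0.85, 0.77 and 0.79), Birc3 at 1.5 and 6 h and Tank at 24 h. No point passed after adjustment.

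Markers of other cell types were set beside these values. In the average over the genotypes, 0 of the 34 measured markers of 8 cell type lists had an unadjusted p under 0.05 at 1.5 and at 6 h. Of all genes, 3.73% and 2.88% did. Within the genotypes they moved apart at 6 h: 3 of 7 macrophage and 2 of 3 T cell markers were lower in WT, and 3 and 2 were higher in KO. Over the 34 markers, 1 was higher and 6 lower in WT, and 8 higher and 1 lower in KO. Shares of all genes in either direction were 7.52% in WT and 10.6% in KO. At 24 h, in the average, 2 of 7 measured macrophage markers and 1 of 4 epithelial markers were higher at that threshold. They were the only 3 of the 34, beside 7.08% of all genes. The mean over macrophage markers lay between -2.0 and -1.12 on untreated arrays. At 24 h it was -0.67 on the WT array and -1.31 on the array labelled KO. The latter lay within the untreated range, above the KO arrays at 0 h. A log ratio has no zero, so absence of a marker could not be read. The part of these markers in the 24 h values of Ikbke and Tank was not tested.

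The same arrays held the response of other genes of the pathway, given here averaged over the genotypes. Their lists were chosen with earlier results of these data known. Of 121 listed genes outside the 10 components, 103 were measured, and 7, 6 and 7 were higher and 2, 1 and 2 lower at an unadjusted p under 0.05 at 1.5, 6 and 24 h. None of these passed. The higher ones were mostly NF-kB subunits and IkB proteins: of 10 measured, 6, 6 and 4 were higher and none lower at the successive times, with a median of 0.52, 0.50 and 0.38. Over all genes the shares higher at these times were 1.22%, 1.22% and 3.88%, and the shares lower were 2.51%, 1.66% and 3.2%.

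Nfkbia, the inhibitor IkB-alpha, was higher by 1.40, 1.32 and 1.30 at 1.5, 6 and 24 h (SE 0.22 each). Its 4 untreated arrays lay between -1.83 and -1.12 and its 6 treated ones between -0.20 and 0.06, with no overlap, as for 0.515% of all genes. Bcl3, an IkB protein that can activate transcription, was higher by 1.51, 0.89 and 0.95 (SE 0.20), and Nfkb2, the p100 precursor, by 0.82, 1.12 and 0.82 (SE 0.16).

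The deubiquitinase gene Tnfaip3 (A20), which takes down the receptor complex, was higher by 0.91 (SE 0.22) at 1.5 h and by 0.59 (SE 0.22) at 24 h. Its partner gene Tnip1 was lower by -0.68 (SE 0.28) at 6 h. In their list, 1 of 7 measured genes was at an unadjusted p under 0.05 at each time. In the list of the receptor complex and TRAFs, Traf4 was the only gene of 12 at this threshold, at -0.55 (SE 0.19) at 1.5 h. Tbk1, the kinase most like Ikbke, was at 0.88 (SE 0.24) at 24 h, when the Tbk1-binding protein gene Tbkbp1 was at -0.64 (SE 0.23). They were the 2 of 8 measured genes of their list at that threshold. Of 21 measured receptor genes, 1, 0 and 2 were at an unadjusted p under 0.05 at 1.5, 6 and 24 h, beside 3.73%, 2.88% and 7.08% of all genes. These were Tnfrsf12a at -0.43 at 1.5 h, and Edar at 0.81 and Ltbr at -0.89 at 24 h. In the average over the genotypes, no gene of the 15 measured TNF superfamily ligands was at an unadjusted p under 0.05 at any time. Within WT, 0, 2 and 2 of them were at 1.5, 6 and 24 h, beside 2.36%, 7.52% and 8.68% of all genes. Within KO, 1, 2 and 5 were, beside 7.23%, 10.6% and 14.1%, the last from the array labelled KO at 24 h.

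For scale, the chemokine gene Ccl2, a known TNF-alpha target, rose by 2.84, 2.90 and 3.12 (SE 0.23, adjusted p = 0.0107, 0.00901 and 0.00491), from between -0.60 and -0.28 on untreated arrays to between 2.11 and 2.77 on treated ones. Ccl7, another chemokine gene, rose by 1.79 at 24 h (SE 0.18, adjusted p = 0.0409).

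The genotype average over all times weighs each array alike, so 0 h, with arrays a and b, counts for more than each later time. In this average, Ikbke and Tnf were higher and Birc3 was lower in KO at an unadjusted p under 0.05. These 3 of 9 members stood beside 9.68% of all genes in either direction (4.23% higher and 5.45% lower), and none passed. Ikbke was higher in KO by 0.60 (SE 0.14, 1.52-fold, limma adjusted p = 0.385), rank 61 of all genes. Tnf was higher by 0.50 (SE 0.21, 1.41-fold, limma adjusted p = 0.513). Birc3 was lower by -0.42 (SE 0.17, limma adjusted p = 0.494).

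With each of the 10 arrays left out in turn, Ikbke stayed at an unadjusted p under 0.05, whereas Tnf lost it in 8 cases and Birc3 in 7. Without the array labelled KO at 24 h, Ikbke stood at 0.54, Tnf at 0.37 and Birc3 at -0.33. Tnf ranged up to 0.75 and Birc3 down to -0.59, in both cases with an array of 1.5 h left out. Birc2 was at -0.32 (SE 0.17), Traf1 at -0.24 (SE 0.19) and TNFR2 at 0.17 (SE 0.18). Tank, Traf2 and TNFR1 lay between 0.06 and 0.10. The median over members was 0.09, beside -0.03 over all genes.

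At 0 h, the comparison with replicates on both sides, Tnf and Ikbke were higher and Birc2 and Birc3 lower in KO at an unadjusted p under 0.05. These 4 of 9 members stood beside 17.2% of all genes in either direction (7.66% higher and 9.5% lower), and none passed. Tnf was higher in KO by 0.64 (SE 0.19, 1.55-fold, limma adjusted p = 0.229). Ikbke was higher by 0.55 (SE 0.21, limma adjusted p = 0.281). Birc2 was lower by -0.64 (SE 0.23, limma adjusted p = 0.272), and Birc3 by -0.53 (SE 0.19, adjusted p = 0.268). These sizes depended on the scaling: under quantile normalization Birc2 was at -0.14 and Birc3 at -0.29, no longer at an unadjusted p under 0.05, while Ikbke was at 1.31 and Tnf at 1.04. With the trend in spot order removed, Ikbke was at 0.25, Tnf at 0.46 and Birc3 at -0.38, none of them still at that threshold. Without either WT 0 h array, none of the 4 was at that threshold.

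Traf2 was at 0.70 (SE 0.33, interval from -0.14 to 1.53) and Traf1 at -0.53 (SE 0.25, interval from -1.15 to 0.09). Of the 9 genes, 5 had both KO arrays above both WT arrays, as for 24% of all genes, and 3 had both below, as for 28.8%. Tank alone had overlapping pairs. Without KO 0 h array a, Birc2 was at -0.84, Traf1 at -0.80 and Traf2 at 1.13, each then resting on 1 KO array. Without KO 0 h array b, Birc2 was at -0.43, Traf1 at -0.27 and Traf2 at 0.27.

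**Figure D3:**
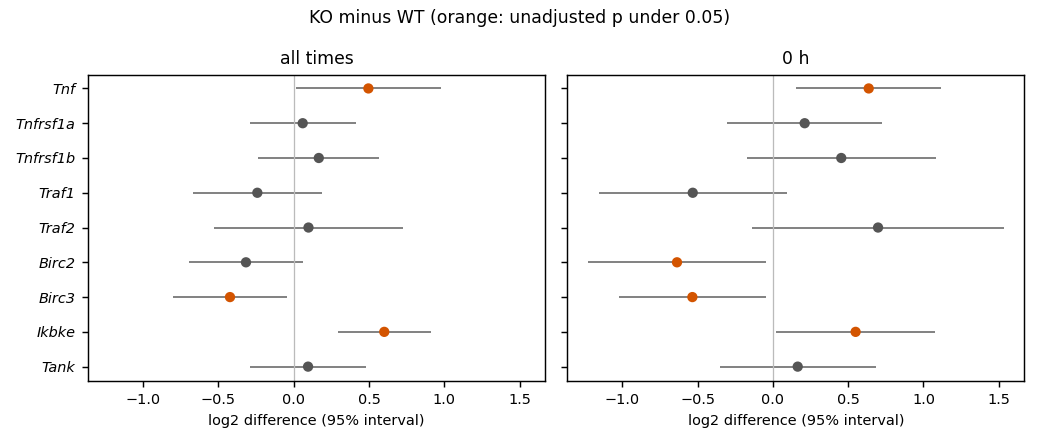
Difference between the genotypes as log2 KO minus WT (horizontal axis) for each member, averaged over all times with the array labelled KO at 24 h included (left) and at 0 h (right), with 95% intervals as bars. Orange points have an unadjusted limma p under 0.05. Ikbke and Tnf lie above 0 and Birc3 below 0 in both panels, and Birc2 is at -0.64 at 0 h.

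At 0 h, 8 of the 34 cell type markers were higher and 9 lower in KO at an unadjusted p under 0.05, beside 7.66% and 9.5% of all genes. Muscle genes moved with genotype beside these members: 4 of 5 were higher in KO in the average over times and 5 of 5 at 0 h at an unadjusted p under 0.05. Of all genes, 4.23% and 7.66% were higher in these comparisons. At 0 h, 4 of 7 macrophage markers were lower and 1 higher, and 2 of 3 T cell markers were lower. The mean over macrophage markers lay at -1.12 and -1.29 on the WT arrays and at -1.61 and -2.0 on the KO arrays at 0 h. The part of these markers in the genotype values of the members was not tested.

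Among the 103 other pathway genes measured, 4 were higher and 2 lower in KO in the average over times at an unadjusted p under 0.05, and 7 were higher and 9 lower at 0 h. These are 5.83% and 15.5% of the 103, beside 9.68% and 17.2% of all genes, and none passed. The ligand genes Cd70 (0.39) and Tnfsf9 (0.30), Bcl3 (0.37) and Rhbdf2 (0.43), which encodes a protein needed for shedding of TNF by the protease ADAM17, were higher in the average. The ligand gene Tnfsf14 was lower, at -0.69 (SE 0.21), as was the inhibitor of apoptosis gene Birc5, at -0.54 (SE 0.13). At 0 h the ligand gene Lta, a neighbour of Tnf in the same gene cluster, was at 1.07 (SE 0.33), Tnfrsf11b, a decoy receptor, at 1.35 (SE 0.22), and Fas, a death receptor, at 0.89 (SE 0.27). Fasl was at -1.04 (SE 0.21) and Ripk3, a kinase of necroptosis, at -1.66 (SE 0.41). These genes are a part of those at that threshold at 0 h. Of 15 measured ligand genes, 1 was higher and 2 lower. Of 21 receptor genes, 3 were higher and 1 lower, and of 6 cell death genes, 1 was higher and 1 lower.

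Whether the response to TNF-alpha differed between the genotypes was tested as an interaction at each time, with 1 treated array per genotype. Tnf at 1.5 h was the only member at an unadjusted p under 0.05, beside 3.72% of all genes. Its response was 0.80 in WT (SE 0.23) and -0.35 in KO (SE 0.23), a difference of -1.16 (SE 0.33, limma adjusted p = 0.999). At 6 h its response was 0.28 in WT and 0.38 in KO, and at 24 h it was -0.21 in WT and 0.15 on the array labelled KO. With each array left out where the term could be fitted, the difference at 1.5 h ranged from -1.23 to -1.09, and without either WT 0 h array it was no longer at an unadjusted p under 0.05.

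Traf2 gave the largest differences at the later times. Its response was 0.58, 0.76 and 0.85 in WT (SE 0.40) and 0.29, -0.65 and -0.46 in KO (SE 0.40), the last of them from the array labelled KO at 24 h. The difference was -1.41 at 6 h (SE 0.57, limma adjusted p = 0.368) and -1.31 at 24 h (SE 0.57, adjusted p = 0.418). It rested on the KO 0 h pair: without KO 0 h array a it was -1.84 at 6 h and -1.74 at 24 h, and without array b it was -0.98 and -0.87. With the trend in spot order removed the 6 h value was -0.90. At these times 0 of 9 members were at an unadjusted p under 0.05, beside 13.9% and 13.1% of all genes.

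Cell type markers moved in the same interactions. Of the 34 measured, 2 were higher and 1 lower at an unadjusted p under 0.05 at 1.5 h, 10 higher and 3 lower at 6 h, and 8 higher and 4 lower at 24 h, where higher means a larger response in KO. Of all genes, 3.72%, 13.9% and 13.1% were at that threshold in either direction. At 6 h, 4 of 7 macrophage markers (median difference 2.02) and 2 of 3 T cell markers (median 3.94) were higher, and the median of the 2 neutrophil markers was 2.59. At 24 h, 3 macrophage markers were higher and 2 lower, and the neutrophil median was 2.03. The mean over macrophage markers was -1.77 on the WT array and -0.83 on the KO array at 6 h, and the lowest mean of the neutrophil list, -2.61, was that of KO 0 h array b. The part of these markers in the interactions and single-genotype responses of the members was not tested.

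Birc3 was higher by 1.21 in KO at 1.5 h (SE 0.24, limma adjusted p = 0.414) and by 0.43 in WT (SE 0.24), a difference of 0.78 (SE 0.34, interval from -0.07 to 1.63). At 6 h the 2 genotypes gave 0.68 and 0.65, with a difference of 0.02 and an interval from -0.82 to 0.87. Ikbke was higher by 0.96, 0.68 and 0.64 in WT and by 0.75, 0.85 and 0.94 in KO at 1.5, 6 and 24 h (SE 0.26 each). The intervals of its differences, -0.21, 0.17 and 0.30, ran from -1.12 to 0.70, from -0.75 to 1.08 and from -0.61 to 1.22, so unequal responses of up to about that size could not be seen with these arrays. Within WT, 2 members were at an unadjusted p under 0.05 at each time, beside 2.36%, 7.52% and 8.68% of all genes. Within KO there were 2, 2 and 1, beside 7.23%, 10.6% and 14.1%. All of these were higher except Traf1 in WT at 24 h. With 1 array left out the counts ran from 0 to 3, 0 to 3 and 0 to 4 in WT and from 1 to 4, 0 to 5 and 1 to 3 in KO.

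Tank at 24 h was higher by 1.03 in WT (SE 0.25, limma adjusted p = 0.361) and by 0.33 on the array labelled KO (SE 0.25), a difference of -0.70 (SE 0.36, interval from -1.60 to 0.20). Leaving out either KO 0 h array changed the spread used for the WT value and not the value itself. Traf1 at 24 h was at -0.77 in WT (SE 0.30, limma adjusted p = 0.574) and 0.02 on the array labelled KO. Tnfrsf1a at 1.5 h was at -0.62 in KO (SE 0.25, interval from -1.25 to 0.02) and -0.11 in WT. Birc2 was at 0.41, 0.64 and 0.63 in KO and at 0.06, -0.14 and 0.17 in WT (SE 0.29).

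**Figure D4:**
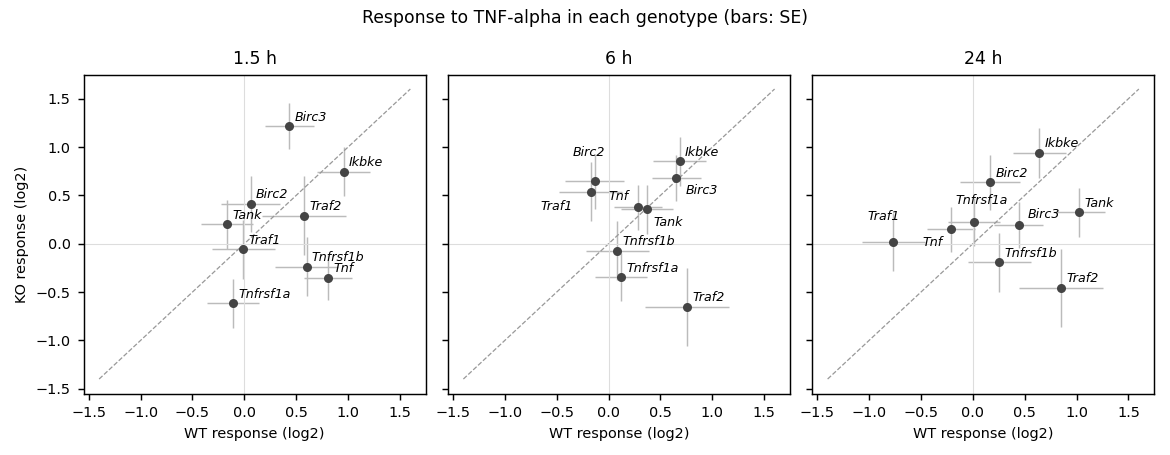
Log2 response to TNF-alpha in KO (vertical axis) against WT (horizontal axis) for each member at 1.5, 6 and 24 h, with standard errors as bars and the line of equal response dashed. The KO values at 24 h come from the array labelled KO at that time. Tnf lies furthest below the line at 1.5 h, at 0.80 in WT and -0.35 in KO, Traf2 lies below it at each time, and Ikbke stays near it.

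The genes with several probes did not read alike on all of them. The first 2 Tank probes followed each other over the 10 arrays (r = 0.81), while the third correlated with them at 0.30 and 0.20. On the WT array at 24 h the 3 probes read 0.65, 0.39 and 1.36, so the high value of that array was shared in direction and largest on the third probe. At 24 h the response of the single Tank probes was 0.61 (SE 0.22), 0.29 (SE 0.25) and 1.12 (SE 0.33).

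The Birc2 probes correlated at -0.29, 0.57 and -0.09. Its second probe was higher at 1.5 h by 1.07 (SE 0.28, limma adjusted p = 0.792 over single probes), whereas the first was at -0.35 and the third at 0.03, so the mean value of 0.24 stands for none of them. At 0 h the 3 probes were at -0.65, -0.19 and -1.09 in KO against WT. The third, at -1.89 on KO 0 h array b and -0.39 on array a, set most of the spread of the KO pair.

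The TNFR2 probes correlated at -0.41, 0.42 and -0.12. The first was higher in KO by 0.61 in the average over times (SE 0.16, limma adjusted p = 0.404) and by 0.90 at 0 h (SE 0.24), and the second was at -0.28 and 0.05. At 24 h of TNF-alpha the 3 probes were at 0.47, -0.74 and 0.36, so the mean of 0.03 averaged probes of opposite sign. At 1.5 h all 3 were above 0 (0.27, 0.20 and 0.11). The TNFR1 probes correlated at 0.33, and its low value on the KO array at 1.5 h came from the first probe (-1.24), with the second at -0.10.

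**Figure D5:**
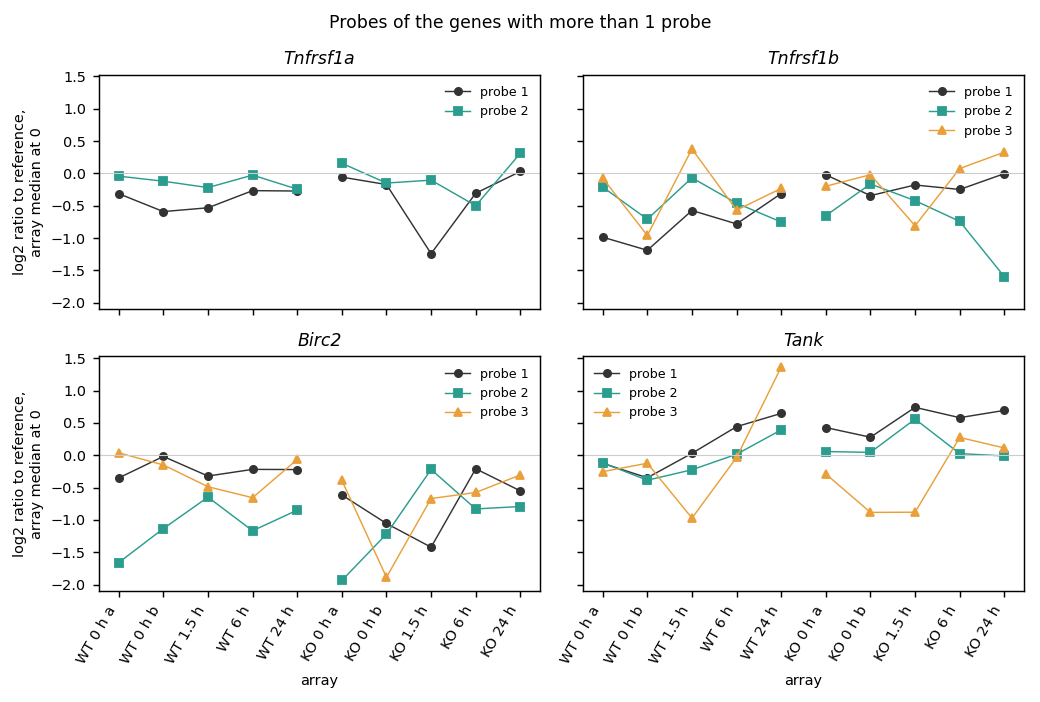
Log2 ratio (vertical axis, array median at 0) of each probe of Tnfrsf1a, Tnfrsf1b, Birc2 and Tank on the 10 arrays (horizontal axis, with WT and KO joined apart and the last point the array labelled KO at 24 h). Only the first 2 Tank probes run closely together (r = 0.81), and the third reaches 1.36 on the WT array at 24 h.

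As a description of how the members varied together over the 10 arrays, which share the reference channel and their 0 h groups, Tnf correlated with Ikbke at 0.65 and with Tnfrsf1b at 0.60, and Birc2 with Birc3 at 0.52. Birc2 and Birc3 are neighbouring genes on chromosome 9. Traf1 and Traf2 ran against each other, at -0.75, and so did Tnfrsf1a and Birc3, at -0.70. Among all genes, the profiles most like that of Ikbke were Sil1 (r = 0.93), Uap1 (0.92) and Ptx3 (0.91). For Birc3 they were Actl6a (0.89), Gtf2f1 (0.89) and Las1l (0.88), for Tnf they were Car4 (0.92), N4bp2l1 (0.87) and H2-DMa (0.85), and for Traf1 they were Sytl3 (0.95), Tlr5 (0.94) and Cds2 (0.92). These are the highest of 14365 values over 10 arrays.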

How the data were processed

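The values are 1 log2 ratio per spot and array, as deposited by the authors, from -8.23 to 8.97. Log base, direction (read as Cy5 over Cy3) and the authors' normalization are not stated in the labels. Spots with values on all 10 arrays were kept (36113 of 38784). Genes were named from the platform table where it gave 1 symbol (22204 spots, all matched to RefSeq by Entrez ID; 9794 of the 14365 genes had 1 probe), probes were averaged, and arrays were centred on their median over genes.

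Tests used limma 3.58.1 in R 4.3.3 (lmFit, eBayes), two-sided, with Benjamini-Hochberg adjustment over all genes. Averages over times or genotypes used additive terms for genotype and time (residual df 5, prior df 3.64), and genotype at 0 h, interactions and single-genotype responses used 1 mean for each group (residual df 2, prior df 3.33). Tests were tried on simulated data. The letters a and b were not used as pairs in the main tests. Over genes, the deviations of a from b in WT and in KO at 0 h correlated at -0.005, which cannot show whether the arrays were paired. Members, lists and rules were chosen with earlier results of these data known. Named were all members, Sirt6, Ccl2 and Nfkbia, list genes that passed in the mean TNF responses, and the 3 nearest profiles of 4 members. Some pathway genes at an unadjusted p under 0.05 were named too, up to 3 per list and comparison, and others at that threshold were not. No gene of the mitogen-activated protein kinase list was named, and no pathway gene was named for the interactions or single-genotype responses.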

Additional observations from a re-analysis of the deposited data

Results flagged for a closer look

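Tnfrsf1b, the gene of TNFR2, stood out because the mean over its probes moved in opposite directions in the genotypes. In WT its response to TNF-alpha was 0.60 at 1.5 h, 0.084 at 6 h and 0.26 at 24 h, and in KO it was -0.24 and -0.072 at the earlier times, with -0.19 for the array labelled KO at 24 h. The interaction did not pass at any time (limma adjusted p = 0.999, 0.899 and 0.686, none at an unadjusted p under 0.05), and the difference over the times together was not tested. The same pattern of signs was found in 906 of 14365 genes (6.31%). The WT 0 h pair, at -0.42 and -0.95, lay on both sides of the treated WT array at 6 h and at 24 h, so these WT responses depend on which 0 h array is taken. The 3 probes of the gene correlated at -0.41, 0.42 and -0.12, and none of them alone had this pattern of signs. In KO they were at 0.02, 0.001 and -0.69 at 1.5 h and at -0.06, -0.33 and 0.19 at 6 h. On the array labelled KO at 24 h they were at 0.18, -1.18 and 0.44. In WT they were at 0.52, 0.40 and 0.90 at 1.5 h, at 0.31, -0.0015 and -0.05 at 6 h and at 0.77, -0.30 and 0.27 at 24 h.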

How the results depend on the processing

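No member passed in any of the 14 comparisons under any alternative that kept all 10 arrays. The values of the members in the single comparisons, 126 in all, gave 2168 recomputed values, of which 11 passed, all of them without a KO 0 h array. The 25 at an unadjusted p under 0.05 gave 446 of these values, of which 100 were no longer at that threshold and 21 had moved by over 1.5 times. Only 6 of the 25 kept the threshold throughout: Ikbke in the genotype average, in the mean TNF response at each time and in KO at 24 h, and Birc3 in KO at 1.5 h. The responses in KO could not be refitted without their own treated array, the only one of its group. For Ikbke at 24 h that array is the one labelled KO, whose Sirt6 value lay within the WT range. In 41 of the 126 the sign changed under at least 1 setting, none of them among the 25 at an unadjusted p under 0.05, and the largest of the 41 was 0.47 in size.

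The counts of members at an unadjusted p under 0.05 moved more. Among genes with an SD above the median, which leaves 7 members, they were 1 in the genotype average, 1 at 6 h and 1 at 24 h of the TNF response, 0 for genotype at 0 h and 0 for the interaction at 1.5 h. Shares of all genes left were 7.6%, 2.37%, 6%, 18.9% and 3.16%, in the same order. With the local trend in spot order removed the member counts were 1 in the genotype average, 2 for genotype at 0 h, and 0, 1 and 2 for the interactions at 1.5, 6 and 24 h. Of all genes, 8.91%, 15.1%, 5.8%, 17.1% and 14.8% were at that threshold, in the same order. The 16 probes were also tested singly, and genes with at least 1 probe at that threshold were counted. These were 5 in the genotype average, 4 at 24 h of the TNF response and 3 for the interaction at 1.5 h. A gene with several probes has more tests there, and no share of all genes is given for this count. Quantile normalization gave 1 and 1 for the interactions at 6 and 24 h, beside 13.9% and 12.5% of all genes. Scaling arrays to equal spread also gave 1 and 1, beside 14.1% and 13.4%. In the single-genotype responses at 1.5, 6 and 24 h the counts under the alternatives that kept all arrays ran from 1 to 3, 0 to 4 and 1 to 4 in WT and from 1 to 4, 0 to 3 and 1 to 2 in KO. With the single probes set aside, shares of all genes ran from 1.25% to 7.71%, 7.07% to 10.2% and 6.84% to 11.3% in WT. In KO the shares ran from 5.65% to 11.3%, 7.02% to 15.1% and 9.98% to 18.9%. The cause was not tested, apart from the fewer genes and the separate probes.

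With the array letters taken as a replicate block the count was 1 at 24 h of the TNF response, where Tank went to 0.58, 2 for genotype at 0 h, and 1 for each interaction at 6 and 24 h. Of all genes, 4.89%, 15.1%, 12.2% and 11.3% were at an unadjusted p under 0.05 in these comparisons. The labels do not say what arrays of the same letter share, and the block changed no adjusted call of a member.

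With each array left out in turn, members passed only without a KO 0 h array. The comparisons concerned were genotype at 0 h, the interactions at 6 and 24 h, the WT response at 24 h and the KO responses. Those fits leave 1 KO array at 0 h and take their spread from the WT 0 h pair alone. Many more of all genes passed in them too, so these passes are not read as results for the members. The count at an unadjusted p under 0.05 ranged from 1 to 3 in the genotype average, from 1 to 2 at 6 h and from 1 to 3 at 24 h of the TNF response, from 0 to 4 for genotype at 0 h, and from 0 to 2, 0 to 3 and 0 to 2 for the interactions. Shares of all genes at that threshold also changed with the array left out. Without KO 0 h array a, Traf2 in the KO response at 6 h was at -1.08 and Ikbke on the array labelled KO at 24 h at 0.99. Birc3 in the KO response at 1.5 h was at 1.14 without KO 0 h array a and at 1.29 without array b. Additive terms cannot give genotype at 0 h or the interactions, so that alternative was not run for them. A single treated array per group limits every interaction.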
